A study of Homo sapiens with 16 samples.

Results

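Wide regions of H3K4me3 on which no G-quadruplex peak was found are described here in A549, a long-established cell line from a human lung carcinoma. H3K4me3 is the histone mark of active promoters, and it was mapped by CUT&Tag, an assay in which an antibody on chromatin directs a transposase to cut and tag the DNA beside it. Regions were chosen by 2 measured values, the width of the H3K4me3 peak and its overlap with BG4 peaks. A region was taken when its H3K4me3 peak was at least 1500 bp wide and shared no base with any peak of BG4, an antibody that binds folded G-quadruplex (G4) DNA, in any of 3 lists: after siRNA against BAZ2A (siBAZ2A), after siRNA against BAZ2B (siBAZ2B) and after control siRNA (siControl). This rule found 2369 of the 18596 H3K4me3 peaks. Wide regions without a BG4 peak are set against the 2258 H3K4me3 peaks of the same minimum width that carry a BG4 peak in at least 1 of the lists.

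The cells were transfected with 71 nM siRNA for 48 hours, per the labels' protocols, and each of the 4 groups (siBAZ2A BG4, siBAZ2B BG4, siControl BG4 and siControl H3K4me3) had 4 replicates. H3K4me3 was mapped in siControl cells only, and all cells, the controls included, went through transfection. The authors deposited 1 merged peak list per group, so no value below has a replicate error and no difference between knockdown and control could be tested. The intervals given are 95% intervals over regions, which cover counting error and not the spread between cultures. The lists hold 4257 (siBAZ2A), 4865 (siBAZ2B) and 3332 (siControl) BG4 peaks, and the read depth behind them is unknown.

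A G4 forms where several short runs of guanines in one DNA strand stack into a 4-stranded fold, and such folds are known mostly from nucleosome-poor, GC-rich promoters. H3K4me3 is laid down by the SET1 and MLL complexes on the nucleosomes that flank active start sites, and the widest domains of the mark are known from genes that define a cell's identity. BAZ2A is best known as a chromatin remodelling subunit that helps to silence copies of the ribosomal RNA genes in the nucleolus, and its paralogue BAZ2B also reads histone marks through a bromodomain. Gene annotation and genome sequence of hg19, the build of the files, were not used here, so regions are named by position and neither their genes nor their guanine runs are given.

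A wide H3K4me3 region was about as likely to lack a BG4 peak as to have one. The 2369 regions without BG4 were 51.2% of the 4627 wide H3K4me3 peaks, against 70.6% for H3K4me3 peaks of any width and 77.0% for those narrower than 1500 bp. These shares follow from the rule and are given as a description. By width the share without BG4 was 85.4% under 1000 bp (84.5 to 86.1), 66.7% from 1000 bp (65.6 to 67.9), 52.9% from 1500 bp (51.2 to 54.5) and 47.5% from 2000 bp (44.4 to 50.7). At 2500 bp and over 116 of 269 regions had no BG4 peak, or 43.1% (37.3 to 49.1). A wider region also has more bases that a peak can touch.

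Close to the threshold, of the 130 H3K4me3 peaks of 1500 to 1510 bp, 68 had no BG4 peak, and of the 111 peaks of 1489 to 1499 bp, 71 had none. The H3K4me3 fold, the authors' value for a peak's enrichment over local background, had a median of 7.93 in the regions without BG4 just inside the threshold and of 8.37 in those just outside it. Regions of exactly 1500 bp without BG4 include chr10:75011653-75013152 (fold 7.49) and chr17:62339627-62341126 (fold 8.92), and regions of 1499 bp include chr17:58602537-58604035 (fold 8.99) and chr16:14726479-14727977 (fold 4.93). The selected regions had a median width of 1763 bp (quartiles 1614 and 1990, highest 3726), and the wide regions with BG4 had a median of 1796.5 bp (1625 and 2047.75, highest 4167).

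The H3K4me3 signal of wide regions without BG4 was called with lower significance than that of wide regions with BG4. The −log10 q, the authors' measure of how unlikely a peak is to come from local background, had a median of 35.6 in regions without BG4 (quartiles 27.6 and 43.8) and of 45.6 in regions with BG4 (37.1 and 54.7). Of the regions without BG4, 34.3% lay above the median of all wide regions (32.4 to 36.2), against 66.4% of those with BG4 (64.4 to 68.3). Within bins of width the odds ratio was 0.216 (0.190 to 0.247). The 2 distributions overlapped over most of their range, from 9.30, the lowest value with BG4, to 77.4, the highest without it. The −log10 q was added as a measure after the data were seen.

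**Figure D1:**
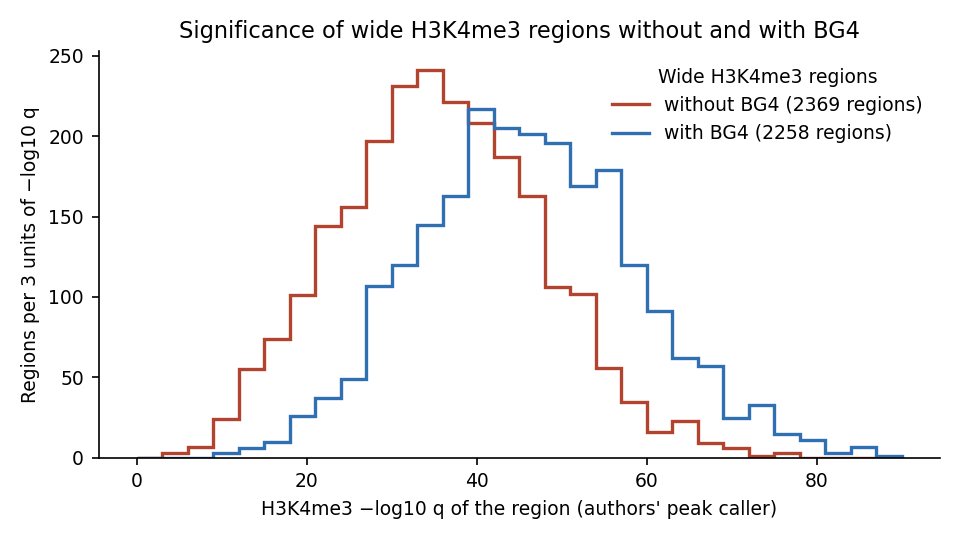
H3K4me3 −log10 q of each wide region (x axis) against the number of regions per 3 units (y axis), for the 2369 wide regions without BG4 and the 2258 with BG4. The regions without BG4 lie lower, with a median of 35.6 against 45.6, and the outlines overlap widely.

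From the lowest to the highest quintile of wide regions by −log10 q, the share without BG4 was 77.6% (74.9 to 80.2), 62.9% (59.7 to 65.9), 51.8% (48.6 to 55.0), 40.6% (37.5 to 43.8) and 23.0% (20.4 to 25.8). The same order was seen within each bin of width that has at least 20 regions per quintile. In the narrowest of the 4 bins of width used for wide regions the share was 83.7% in the lowest quintile and 25.5% in the highest, and among those of 2500 bp and over it was 59.5% in the lowest quintile and 13.2% in the middle one, with 5 of 38 regions. At the extremes, 91 of the 100 wide regions of lowest −log10 q had no BG4 peak (83.8 to 95.2%) and 9 of the 100 of highest −log10 q had none (4.81 to 16.2%).

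**Figure D2:**
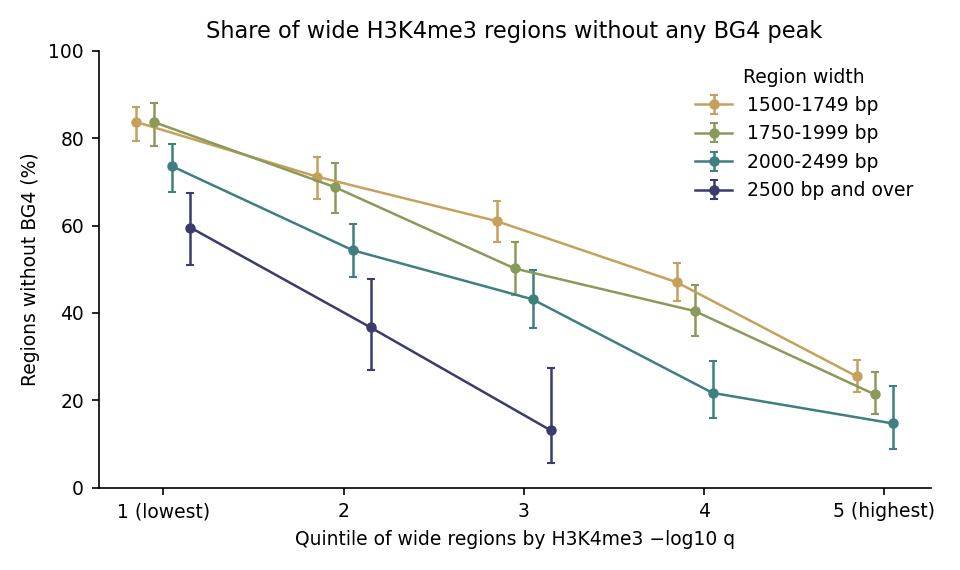
Share of wide H3K4me3 regions without any BG4 peak (y axis, %) in quintiles of H3K4me3 −log10 q (x axis, lowest to highest), 1 line per bin of width, with 95% Wilson intervals. Points with fewer than 20 regions are not drawn. Every line descends, from 83.7% to 25.5% in the narrowest bin.

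Fold separated the 2 kinds of region far less. Its median was 6.73 in regions without BG4 (quartiles 5.65 and 7.71) and 6.96 in regions with BG4 (5.92 and 7.95), and 47.1% (45.1 to 49.1) against 53.0% (50.9 to 55.1) lay above the median of all wide regions. Wider peaks had lower folds, with a rank correlation over regions of -0.60 without BG4 and -0.74 with BG4, both within 1 list. Within bins of width the odds ratio of a high fold was 0.551 (0.475 to 0.638). In the narrowest bin of width the share without BG4 was 78.1% in the lowest quintile of fold (70.9 to 83.9) and 44.7% in the highest (41.3 to 48.2).

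At equal significance the order of the folds turned round. Within bins of width and quintiles of −log10 q, a stratification chosen after the data were seen, the odds ratio of a high fold was 1.84 (1.52 to 2.23). In the middle quintile of −log10 q the median fold was 7.21 in regions without BG4 and 6.60 in regions with BG4, and the median width was 1731 bp and 1861 bp. In each of the 5 quintiles the regions without BG4 were narrower and had the higher median fold. A q-value depends on the number of reads as well as on the fold, and the reads themselves were not analysed here.

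The widest regions without BG4 were low in fold. The widest lay at chr17:36102156-36105881, with 3726 bp, a fold of 3.31 and a −log10 q of 17.6, and its nearest BG4 peak was 132 kb away. It was followed by chr5:107004755-107008440, with 3686 bp, a fold of 3.14 and no BG4 peak within 1055 kb. Next came chr12:125396356-125399867, with 3512 bp, a fold of 3.11 and a siBAZ2A peak at 2.05 kb, and chr1:37939476-37942924, with 3449 bp, a fold of 2.55 and a BG4 peak at 118 kb. All 10 of the widest had folds of 2.46 to 4.64 and −log10 q of 8.55 to 32.2, so all lay below the median of wide regions on both scales. Further down the 10 widest were chr15:67357481-67360871 (3391 bp), chr7:5567576-5570878 (3303 bp), chr12:107711924-107715158 (3235 bp), chr17:27893098-27896317 (3220 bp) and chr9:2014789-2018002 (3214 bp). The widest regions with BG4 were as low in fold: chr15:66993173-66997339 had 4167 bp and a fold of 2.72, and chr15:99190357-99194097 had 3741 bp and a fold of 3.13, each with a BG4 peak in all 3 lists. Among the 100 widest H3K4me3 regions, 34 had no BG4 peak (25.5 to 43.7%).

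Regions without BG4 also held the top of the list by fold. The 3 wide regions of highest fold all lacked BG4. The first, chr4:178362530-178364039, had 1510 bp, a fold of 12.9 and a −log10 q of 53.7, with a siBAZ2B peak at 131 kb and its nearest siControl peak at 4106 kb. The second, chr5:37248399-37249916, had a fold of 12.2 and a −log10 q of 67.7, with its nearest BG4 peak at 1006 kb, and the third, chr18:9334030-9335567, had a fold of 11.5 and a −log10 q of 69.2, with its nearest BG4 peak at 139 kb. Regions without BG4 also held the ranks 5 to 8 by fold, at chr1:222790797-222792316 (fold 11.3), chr17:18684194-18685762 (11.2), chr19:35644897-35646506 (11.2) and chr22:19278229-19280067 (10.9). That of chromosome 17 ranked 32 of 4627 by −log10 q, at 75.8. This run of ranks does not extend far, since 31 of the 100 wide regions of highest fold had no BG4 peak (22.8 to 40.6%).

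In part of the wide regions without a control G4 peak, a G4 peak was listed after knockdown. Of 3254 wide regions without siControl BG4, 885 carried a BG4 peak in at least 1 knockdown list, or 27.2% (25.7 to 28.8), and the other 2369 are the regions described here. The same share among narrower H3K4me3 peaks was not computed. Of the 885, 350 had a peak in both knockdown lists, 235 in siBAZ2A only and 300 in siBAZ2B only. Control peaks were also missing after knockdown. Of the 1373 wide regions with siControl BG4, 1075 had a peak in all 3 lists and 90 had one in siControl only. Both knockdowns are compared with the same siControl list, which is also the shortest. The median H3K4me3 −log10 q, measured in siControl cells, was 35.6 in regions without any BG4, 43.6 in regions with BG4 only after knockdown and 47.1 in regions with siControl BG4. From the lowest to the highest quintile of −log10 q, the share of wide regions without siControl BG4 that had a knockdown peak was 10.3% (8.43 to 12.6), 22.3% (19.5 to 25.4), 29.2% (25.9 to 32.8), 35.9% (32.2 to 39.9) and 51.5% (46.8 to 56.1). The more significant the H3K4me3 call, the more often a knockdown peak was listed. High significance was not particular to regions with knockdown peaks. Of those with siControl BG4, 70.4% lay above the median −log10 q of wide regions (67.9 to 72.7). Of those with BG4 only after knockdown, 60.2% did (57.0 to 63.4).

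Where wide regions did carry BG4, the peak mostly covered a minor part of the region, and its summit was mostly within 400 bp of the H3K4me3 summit. A median of 32.5% of the region was covered in siBAZ2A, 34.9% in siBAZ2B and 35.5% in siControl, and the BG4 and H3K4me3 summits were a median of 159 bp apart in siBAZ2A, 172 bp in siBAZ2B and 161 bp in siControl. The upper quartiles of this distance were 390, 400 and 392.5 bp. The BG4 summits lay a median of 18.2%, 18.7% and 18.1% of the width from the middle of the region. The H3K4me3 summit itself lay farther from the middle in regions without BG4, at a median of 15.0% of the width (quartiles 7.92 and 22.6) against 12.4% (6.33 and 19.6) in regions with BG4. It was more than 25% of the width away from the middle in 19.8% of the regions without BG4 (18.2 to 21.5) and in 12.5% of those with BG4 (11.2 to 14.0), with an odds ratio of 1.90 within bins of width (1.61 to 2.24). Adding quintiles of −log10 q to the strata left an odds ratio of 1.28 (1.07 to 1.53). In the lowest quintile 29.90% without BG4 and 29.95% with BG4 were off-centre, and in the second quintile 24.1% and 19.5% were. In the middle quintile the order was the other way, with 13.8% without BG4 and 16.2% with BG4. In the fourth quintile 8.24% without BG4 and 7.83% with BG4 were off-centre, and in the highest 7.98% and 5.47% were.

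G4 peaks were rarely just outside these regions, though within a few kb they were more frequent than beside regions with BG4. Only 16 of the 2369 regions without BG4 had a BG4 peak within 1 kb (0.675%, 0.416 to 1.09), against a further, non-overlapping peak within 1 kb of 7 of the 2258 regions with BG4 (0.310%, 0.150 to 0.639). Within 3.98 kb the shares were 2.32% without BG4 and 0.664% with BG4, and within 5.01 kb they were 3.29% and 1.73%. The nearest misses were chr16:85646164-85648177, where a siControl BG4 peak of 637 bp (fold 5.92) ended 38 bp away and the siBAZ2A and siBAZ2B peaks lay 315 and 371 bp away, and chr3:48631018-48632999, where a siBAZ2B peak (fold 5.21) began 41 bp away. At chr3:52089250-52091379 a siBAZ2B peak of fold 3.51 lay 111 bp away, at chr16:84649930-84651984 a siBAZ2A peak of fold 7.15 lay 371 bp away, and at chr19:14543773-14545320 a siBAZ2B peak of fold 5.15 lay 374 bp away. Each of the last 4 had such a close peak in 1 list only.

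Over longer distances the regions without BG4 lay farther from G4 peaks. The median gap to the nearest BG4 peak outside the region was 113 kb (quartiles 37.5 and 316) without BG4 and 64.9 kb (22.9 and 182) with BG4. Within 10 kb, 7.81% (6.80 to 8.96) and 9.08% (7.96 to 10.3) had such a peak, and the odds ratio within bins of width, 0.860 (0.698 to 1.06), had an interval that includes 1. The regions with BG4 were not of one kind here, at 5.42% (4.12 to 7.12) for those with BG4 only after knockdown and 11.4% (9.86 to 13.2) for those with siControl BG4, below and above the regions without BG4. Their median gaps were 91.3 kb and 53.2 kb in the same order, so those with siControl BG4 differed most from the 113 kb without BG4. Within 100 kb the shares were 47.2% without BG4 (45.2 to 49.2) and 60.4% with BG4 (58.3 to 62.4), not stratified by −log10 q or chromosome. By list, a peak within 100 kb was found for 38.6% without and 51.2% with BG4 in siBAZ2A, for 39.9% and 54.7% in siBAZ2B, and for 32.9% and 46.5% in siControl. For 135 of the 185 regions without BG4 that had a peak within 10 kb, that peak lay on another H3K4me3 peak. This share was not computed for regions with BG4 or for the BG4 lists as a whole, so whether it is particular to these regions was not tested.

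**Figure D3:**
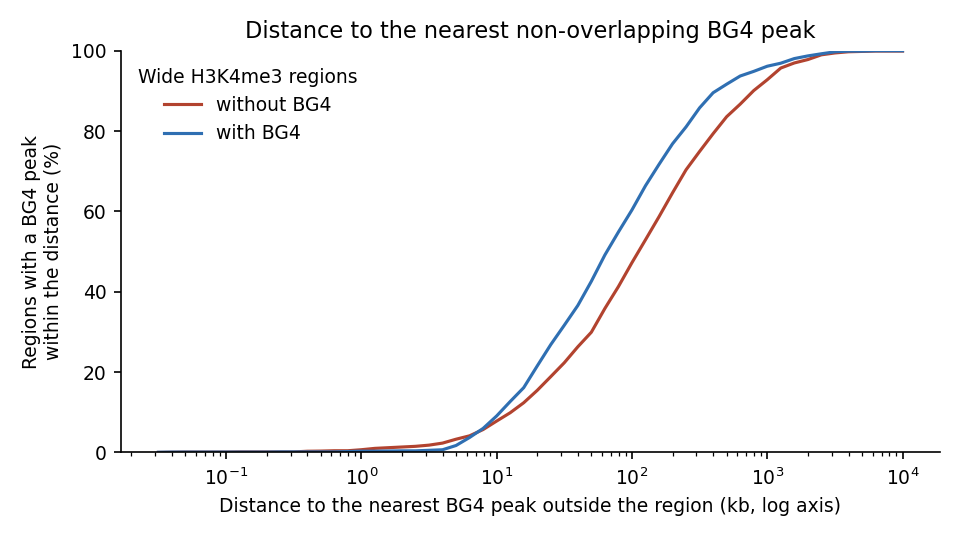
Share of wide H3K4me3 regions (y axis, %) with a BG4 peak of any list within a given distance outside the region (x axis, kb, log scale). The curve of the regions without BG4 lies below that of the regions with BG4 from about 10 kb on, with 47.2% against 60.4% at 100 kb. At 3.98 kb it lies above, with 2.32% against 0.664%.

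For 2 of the regions without BG4 no BG4 peak was listed on the same chromosome or contig. Among the others, the regions most remote from a BG4 peak lay on chromosomes 13, 4 and 5. At chr13:67803743-67805658 (1916 bp, fold 6.73, −log10 q 45.3) the nearest BG4 peak was 5496 kb away, and at chr4:31997796-31999328 (1533 bp, fold 5.80) it was 5135 kb away. A pair on chromosome 4, chr4:95372738-95374320 and chr4:95678811-95680347, had gaps of 4542 and 4236 kb, and chr5:27472296-27474200 had a gap of 3945 kb. The nearest other H3K4me3 peak was 1275 kb from chr4:31997796-31999328, and 5.27 to 201 kb from the other four.

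Other H3K4me3 peaks were somewhat more often close by. Another H3K4me3 peak lay within 5 kb of 10.4% of the regions without BG4 (9.22 to 11.7) and of 6.73% of those with BG4 (5.77 to 7.84), with an odds ratio of 1.59 (1.29 to 1.97) within bins of width. Stratified by width and quintile of fold, this ratio was 0.949 (0.740 to 1.22), and with quintiles of −log10 q it was 0.789 (0.618 to 1.01). Among the neighbours under 1500 bp wide, which the rule did not choose, 37 of 232 beside regions without BG4 carried a BG4 peak (15.9%, 11.8 to 21.2), and 21 of 132 beside regions with BG4 did (15.9%, 10.6 to 23.1).

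Along a chromosome, the next wide region was of the same kind slightly more often than not. Of 1246 pairs of successive wide regions 10 to 100 kb apart, 691 were of the same kind, both without or both with BG4 (55.5%, 52.7 to 58.2). With each pair counted from both of its sides, the neighbour lacked BG4 for 50.1% of regions without BG4 and for 40.2% of regions with BG4 at this distance, for 55.95% and 48.4% at 100 to 1000 kb, and for 59.5% and 59.5% beyond 1000 kb. Of the 115 pairs closer than 10 kb, 66 were of the same kind (57.4%, 48.3 to 66.0).

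Chromosome 6 had the largest share of wide regions without BG4 among chromosomes 1 to 22 and X. Of its 187 wide regions 145 had no BG4 peak, or 77.5% (71.0 to 82.9), followed by 68.7% on chromosome 18 (46 of 67, 56.8 to 78.5), 60.1% on chromosome 15 (95 of 158, 52.3 to 67.4) and 59.7% on chromosome 4 (95 of 159, 52.0 to 67.1). Chromosome 19 with 37.3% (31.8 to 43.2) and chromosome 17 with 40.6% (35.6 to 45.9) were lowest. Compared with all other wide regions within bins of width, the odds ratio of lacking BG4 was 3.49 on chromosome 6 (2.46 to 4.94), 0.557 on chromosome 19 (0.433 to 0.717) and 0.633 on chromosome 17 (0.506 to 0.791). These intervals are not adjusted over the 23 chromosomes.

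**Figure D4:**
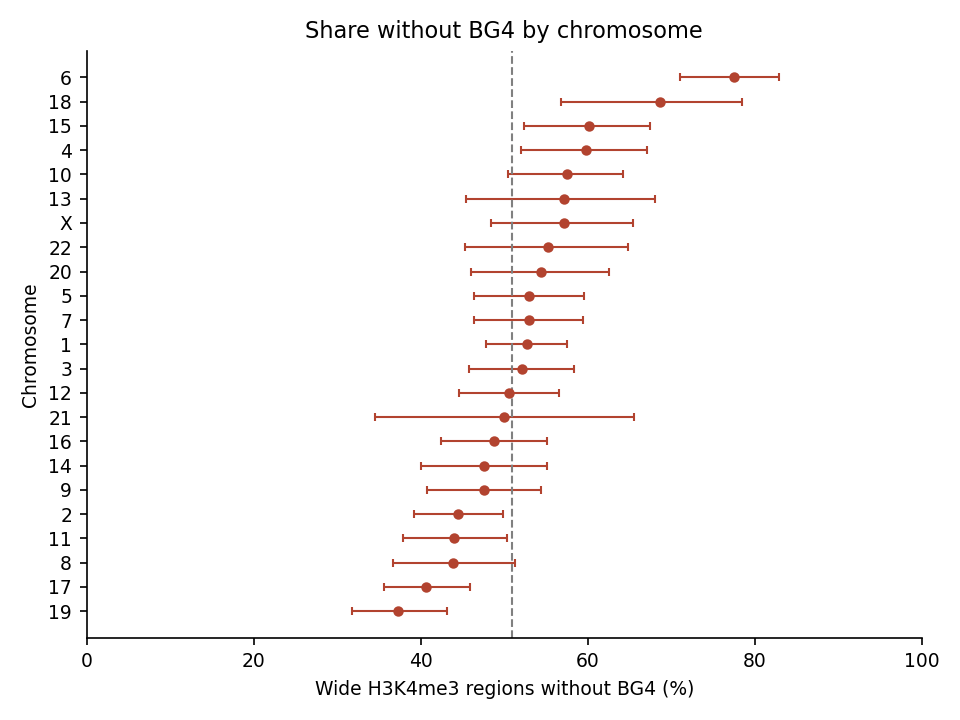
Share of wide H3K4me3 regions without BG4 (x axis, %) on each chromosome (y axis), with 95% Wilson intervals and a dashed line at the share over chromosomes 1 to 22 and X, 50.9%. Chromosome 6 stands highest at 77.5%, and chromosomes 19 and 17 lowest at 37.3% and 40.6%.

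The H3K4me3 values of these chromosomes differed as well. The median −log10 q of wide regions was 31.3 on chromosome 6, 40.2 on chromosome 19 and 48.1 on chromosome 17. Over the 23 chromosomes the share without BG4 had a Pearson r of -0.64 and a rank correlation of -0.48 with this median, given as a description, since all points come from the same lists. With quintiles of −log10 q added to the strata, the odds ratio was 2.00 on chromosome 6 (1.39 to 2.89), 0.524 on chromosome 19 (0.397 to 0.693) and 0.983 on chromosome 17 (0.766 to 1.26). The interval then included 1 on chromosomes 2, 4, 17 and 18, where it had not within bins of width alone. It lay above 1 on 4 chromosomes, 5, 6, 15 and 20, with 2.16 on chromosome 15 (1.52 to 3.09), and below 1 on 2, 11 and 19. In the middle quintile of −log10 q, 21 of 26 wide regions of chromosome 6 had no BG4 (80.8%, 62.1 to 91.5), against 52.4% (48.9 to 55.8) on all chromosomes other than 6, 17 and 19. The difference was smaller in the other quintiles. It was 87.0% against 78.1% in the lowest and 75.4% against 64.2% in the second. In the fourth it was 52.9% (9 of 17 regions) against 41.6%, and in the highest 33.3% (2 of 6) against 23.1%.

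The longest unbroken run of wide regions without BG4 was on the long arm of chromosome 6. At chr6:111195444-149867741, a span of 38.7 Mb, 32 successive wide regions had no BG4 peak in any list. Among the H3K4me3 peaks under 1500 bp in the span, which the rule did not choose, 10 of 110 had a BG4 peak (9.09%, 5.01 to 15.9), against 23.0% of all such peaks. The span held 8 siBAZ2A, 7 siBAZ2B and 4 siControl BG4 peaks. The median H3K4me3 −log10 q of its wide regions was 33.9, close to the 35.6 of all wide regions without BG4 and below the 40.4 of all wide regions. A second run of 14 such regions followed at chr6:157098334-166401704, where 9 of the 22 H3K4me3 peaks under 1500 bp had a BG4 peak (40.9%, 23.3 to 61.3). Their share lay below that of the whole list in the first span and above it in the second, where the interval begins close to the 23.0% of the whole list. The longest run of wide regions with BG4 had 21 regions, on chromosome 19, over 5.50 Mb. The window from 25 to 35 Mb of chromosome 6, which holds the histone and MHC genes, had 28 of its 33 wide regions without BG4 (84.8%, 69.1 to 93.3), and the rest of the chromosome had 117 of 154 (76.0%, 68.6 to 82.0).

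Chromosomes 17 and 19 together held 10.3% of the regions without BG4 (9.14 to 11.6) and 16.8% of those with BG4 (15.3 to 18.4), with an odds ratio of 0.575 within bins of width (0.484 to 0.684) and of 0.722 with quintiles of −log10 q added (0.596 to 0.874). Taken singly with those quintiles, the ratio was 0.983 on chromosome 17 (0.766 to 1.26) and 0.524 on chromosome 19 (0.397 to 0.693). Their higher share of BG4 was known from an earlier analysis of these lists. Among the regions with BG4 only after knockdown the share on these chromosomes was 10.5% (8.66 to 12.7), and among those with siControl BG4 it was 20.8% (18.8 to 23.1). On this measure the value after knockdown lay within the interval of the regions without BG4 and outside that of the regions with siControl BG4. The summit was off-centre in 19.8% of the regions without BG4, in 13.3% of those with BG4 only after knockdown (11.3 to 15.7) and in 12.02% of those with siControl BG4 (10.4 to 13.8). By nearness to a chromosome end, 17.7% without BG4 (16.2 to 19.3) and 17.6% with BG4 (16.1 to 19.3) lay within 5 Mb of an end, and the odds ratio, 1.01 (0.866 to 1.17), had an interval that includes 1. The share was 14.7% (12.5 to 17.2) in regions with BG4 only after knockdown and 19.5% (17.5 to 21.7) in those with siControl BG4, one below and one above the regions without BG4. Since chromosome lengths were not used, the last listed peak served as the far end.

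**Figure D5:**
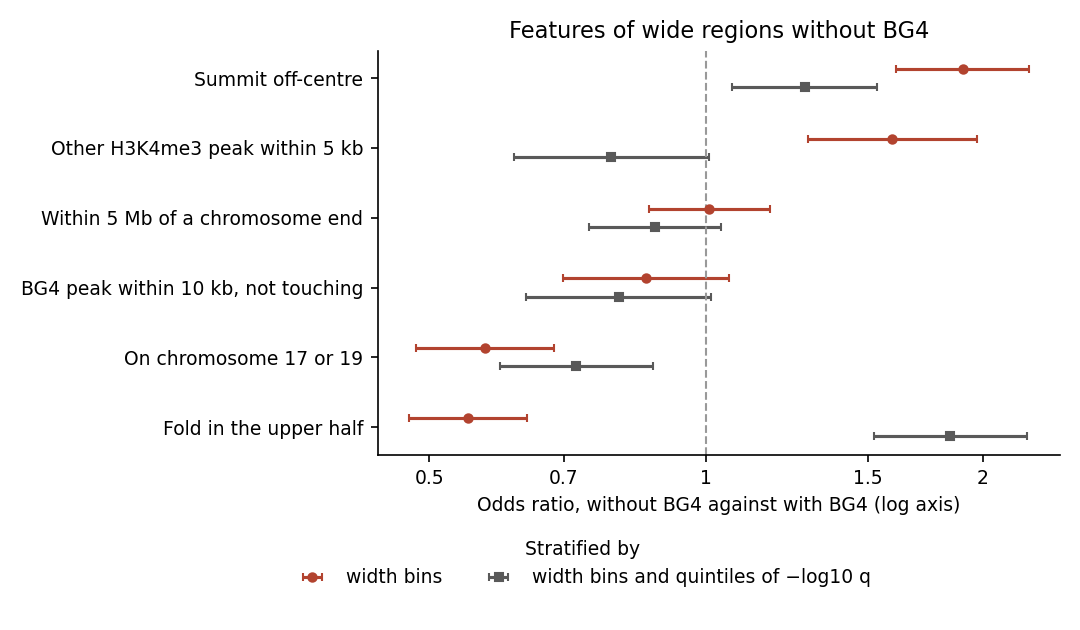
Odds ratios (x axis, log scale) for 6 features (y axis) in wide H3K4me3 regions without BG4 against those with BG4, with 95% intervals, stratified by width (circles) or by width and quintile of −log10 q (squares). An off-centre summit and chromosomes 17 and 19 together keep their side of 1 with both intervals away from it, while a high fold moves from 0.551 to 1.84. Chromosome 17 alone, not drawn, had 0.983 (0.766 to 1.26) with quintiles of −log10 q.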

How the data were processed

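The 16 libraries fall into 4 groups of 4 replicates. Per the submitters' processing notes, MACS2 2.1.4, Bowtie2 2.4.5, SAMtools 1.15.1, bedtools and Picard were used, with builds hg19 and dm6. A peak had to be present in 2 or more replicates, per the labels, and took the borders of the largest replicate's peak, so each deposited list is 1 merged list. The deposited lists give each peak's position, its summit, the authors' fold enrichment (a ratio) and the authors' −log10 of the q-value. Per the peak names, both values come from 1 run per list, numbered 6 (siBAZ2A), 3 (siBAZ2B), 5 (siControl BG4) and 6 (H3K4me3). Since numbers above 4 occur among 4 replicates, the replicate behind each list is not known. The values were used only within the H3K4me3 list, except where the fold of a BG4 peak is named. Coordinates are hg19, written 1-based.

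A BG4 peak counted as carried when it shared at least 1 base with the region. Shares have 95% Wilson intervals. Odds ratios are Mantel-Haenszel estimates over 4 bins of width (2 of equal span from 1500 to 2000 bp, 1 from 2000 bp and 1 from 2500 bp) with 95% intervals. No p-values were computed. Intervals treat regions as independent. The counting and the estimate were tested on simulated data.

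The regions, features and lists were chosen with earlier results of these data known. The −log10 q comparison, strata of −log10 q or fold, the values by chromosome, the runs and the alternative without chromosome 6 were added after the data were seen. Named regions are the 10 widest and 10 of highest fold, the 5 nearest to and 5 farthest from a BG4 peak, the 5 widest with BG4 and 5 on each side of the width threshold, of which the text gives those that bear on a result. Sequence features and genes, both planned, were not analysed, since an hg19 genome was not used here. The scripts ran in Python 3.11.15 with SciPy 1.17.1, NumPy 2.4.6, pandas 2.3.3 and matplotlib 3.10.9.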

Additional observations from a re-analysis of the deposited data

How the results depend on the processing

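The alternatives changed the minimum width, the BG4 peaks that count, the H3K4me3 peaks or chromosomes used and the strata, and 74 of the 98 values were classed as the same. For an odds ratio this means that it kept its direction and whether its interval includes 1. Of the 74, 6 are numbers of regions and 6 are shares, which have no direction. Such a number could still change, as to 3254 regions with the siControl list alone, against 2369. For 2 of the 74, the share at 2500 bp and over with another minimum width, no change was possible. The odds ratios of high −log10 q (0.197 to 0.264), off-centre summit (1.28 to 2.00) and chromosomes 17 and 19 together (0.441 to 0.722) kept both under each alternative run, though the off-centre summit was nearest to 1 with quintiles of −log10 q. Chromosome 17 alone did not, with 0.983 (0.766 to 1.26) once quintiles of −log10 q were added. The number of regions without BG4 was 6547 at 1000 bp or more, 572 at 2000 bp or more and 1116 among the regions above the median fold, all through the number of peaks admitted. The share without BG4 at 2500 bp and over was 51.7% with BG4 peaks of −log10 q of at least 5 and 62.8% with the siControl list alone, both of which count fewer BG4 peaks.

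The odds ratio of high fold turned to 1.84 with quintiles of −log10 q. That of another H3K4me3 peak within 5 kb was 1.25 with the siControl list alone (0.986 to 1.58), and it turned to 0.577 in the regions above the median fold, 0.789 with quintiles of −log10 q and 0.949 with quintiles of fold. That of a BG4 peak within 10 kb had an interval below 1 at 1000 bp or more (0.686), with −log10 q of at least 5 (0.708), with peaks within 1 kb counted as carried (0.782), with the siControl list alone (0.564), in the regions above the median fold (0.513) and with quintiles of fold (0.724). That of chromosome ends, 1.01, lay on the other side of 1 at 1000 bp (0.986) and 2000 bp (0.983), with −log10 q of at least 5 (0.903), with the siControl list alone (0.840, 0.714 to 0.988), without chromosomes M and Y and contigs (0.958), with quintiles of −log10 q (0.880) or fold (0.943) and without chromosome 6 (0.978). Unless stated, the cause was not tested. In the regions above the median fold no region of 2500 bp and over was left, so that share has no value there.

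No paired analysis was possible because the deposited lists give no values per replicate, which also means that leaving out single replicates was not run. Absence from a list is not absence of a G4, and the depth behind each list is unknown.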

Other observations

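Unplaced contigs and alternate haplotypes held 54 of the wide regions without BG4 and 28 of those with BG4. On the alternate haplotypes of chromosome 6, 47 of 67 wide regions had no BG4 peak (70.1%, 58.3 to 79.8). Along chromosome 6 in steps of 20 Mb, the share without BG4 ran between 62.5% (40 to 60 Mb, 15 of 24, 42.7 to 78.8) and 16 of 16 regions (120 to 140 Mb, 80.6 to 100%), and the median H3K4me3 −log10 q of the steps was 23.9 to 35.8.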
